A study of Mus musculus with 12 samples.

Results

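The genes described here specify the somites and the skeletal muscle that forms from them. They are the 10 genes Meox1, Meox2, Tcf15, Mesp1, Mesp2, Uncx, Myf5, Myod1, Myog and Msc, taken by name from the 21563 genes of the deposited comparison. They were measured by poly-A RNA-seq at E10.0 in wild-type embryos of the outbred CD1 mouse strain, none of them treated, with 6 libraries of heart tube (HT) and 6 of posterior second heart field (pSHF). HT is the beating heart muscle tube, and pSHF is the mesoderm behind it that supplies cells to the atria and the atrial septum. Per the labels, HT and pSHF were taken from the same embryos. Whether a library is 1 embryo or a pool is not stated, so p-values measure only the spread between these libraries.

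Somites are blocks of mesoderm that form in pairs along the neural tube from the presomitic mesoderm. Each one divides into the sclerotome, which makes vertebrae and ribs, and the dermomyotome, from which the myotome arises as the first skeletal muscle. Myogenic commitment runs through the basic helix-loop-helix (bHLH) factors Myf5, Myod1 and Myog, which bind E-boxes in muscle genes. The second heart field lies beside the pharynx and the foregut and borders the paraxial mesoderm, and its precursors share ancestors with pharyngeal muscles.

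Values are the deposited normalized gene counts, that is, gene counts scaled per library by the authors. For many genes (Msc and Uncx among them) the values above 0 were not whole reads once that scaling was undone, and the reason is not stated. Fold changes are HT over pSHF on log2(value + 1), a scale that understates the change of low genes, and adjusted p is from limma over all 14909 genes with a mean of at least 5. The markers of both tissues matched their labels. All 5 heart muscle genes (Tnnt2, Myh6, Myl2, Nppa and Nkx2-5) were higher in HT, where their summed level was 269883 to 331405, against 12047 to 29584 in pSHF. All 5 second heart field genes (Osr1, Foxf1, Isl1, Hoxb1 and Tbx5) were higher in pSHF, with sums of 2395 to 2713 in HT and 7711 to 9964 in pSHF. HT libraries had a rebuilt depth of 20634439 to 25645404 reads and pSHF libraries of 19089557 to 26287281. Blood content differed, with 7 erythroid genes holding 1.43 to 6.20% of the signal in HT and 0.301 to 0.599% in pSHF.

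Promoter sequences are shown for 3 genes whose values carry the results below: Myog and Myf5, which were high and low in the same pSHF libraries, and Meox2, which was nearly absent from HT while its relative Meox1 was not. RefSeq promoters (GRCm38.p6) matched 6 of the 10 genes (Meox2, Mesp1, Mesp2, Uncx, Myf5 and Myog). Each line gives the 250 bases before the RefSeq start, with E-boxes (CANNTG, read on both strands) and matches to the MEF2 consensus in capitals. That consensus was taken as YTAWWWWTAR (Y is C or T, W is A or T, R is A or G). No mismatch was allowed, so near matches stay in lower case.
Myog (chr1:134289754-134290003, plus strand): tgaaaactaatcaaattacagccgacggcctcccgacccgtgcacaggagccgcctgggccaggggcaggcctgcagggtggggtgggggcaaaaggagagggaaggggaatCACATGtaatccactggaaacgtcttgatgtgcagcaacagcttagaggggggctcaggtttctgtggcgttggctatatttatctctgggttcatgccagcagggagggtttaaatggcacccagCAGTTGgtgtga
Myf5 (chr10:107486135-107486384, minus strand): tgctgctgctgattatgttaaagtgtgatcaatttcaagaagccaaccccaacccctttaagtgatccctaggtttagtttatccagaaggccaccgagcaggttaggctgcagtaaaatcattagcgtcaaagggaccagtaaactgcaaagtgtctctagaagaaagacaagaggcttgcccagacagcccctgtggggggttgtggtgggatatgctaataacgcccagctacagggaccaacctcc
Meox2 (chr12:37108290-37108539, plus strand): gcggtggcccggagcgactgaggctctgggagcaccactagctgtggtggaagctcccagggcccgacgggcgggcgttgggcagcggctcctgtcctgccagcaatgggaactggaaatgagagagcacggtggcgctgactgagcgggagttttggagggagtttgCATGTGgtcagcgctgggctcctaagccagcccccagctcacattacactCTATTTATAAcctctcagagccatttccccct
The Myog window held 2 E-boxes, CACATG at bases -138 to -133 and CAGTTG at -12 to -7, counted back from -1 at the base before the RefSeq start. GENCODE sets the Myog start a few bases further upstream, so the nearer E-box lies in its first exon there. The Myf5 window held no E-box, and the Meox2 window held 1 (CATGTG at -82 to -77). Of 32851 RefSeq promoter windows of this length, 66.2% held at least 1 E-box. The Meox2 window also held a MEF2 consensus match at -32 to -23, which overlaps a TATAAA on the other strand at -29 to -24. A MEF2 match was found in 2.92% of all windows and a TATAAA in 12.4%. The Myog window held ctatatttat, which misses the MEF2 pattern only at its last base and was not counted. These matches describe letters only.

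Across the 10 genes, 7 were higher in pSHF (Meox2, Tcf15, Uncx, Myf5, Myod1, Myog and Msc), 1 was higher in HT (Mesp2), 1 did not pass (Meox1), and Mesp1 was too low to test. Of all genes tested, 40.0% were higher in pSHF and 38.3% higher in HT, 78.3% in all. Libraries of the 2 tissues did not overlap for 6 of the genes, all with pSHF above HT, whereas 60.5% of all genes tested separated, 30.3% with pSHF higher and 30.1% with HT higher. The 7 genes higher in pSHF had HT means under the minimum of 5 and entered the test through pSHF, as Mesp2 did through HT, so these counts are descriptions. In the authors' deposited table the same 8 genes had an adjusted p below 0.05 with the same direction. In bulk RNA, fewer cells of a type and less RNA per cell cannot be told apart.

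**Figure D1:**
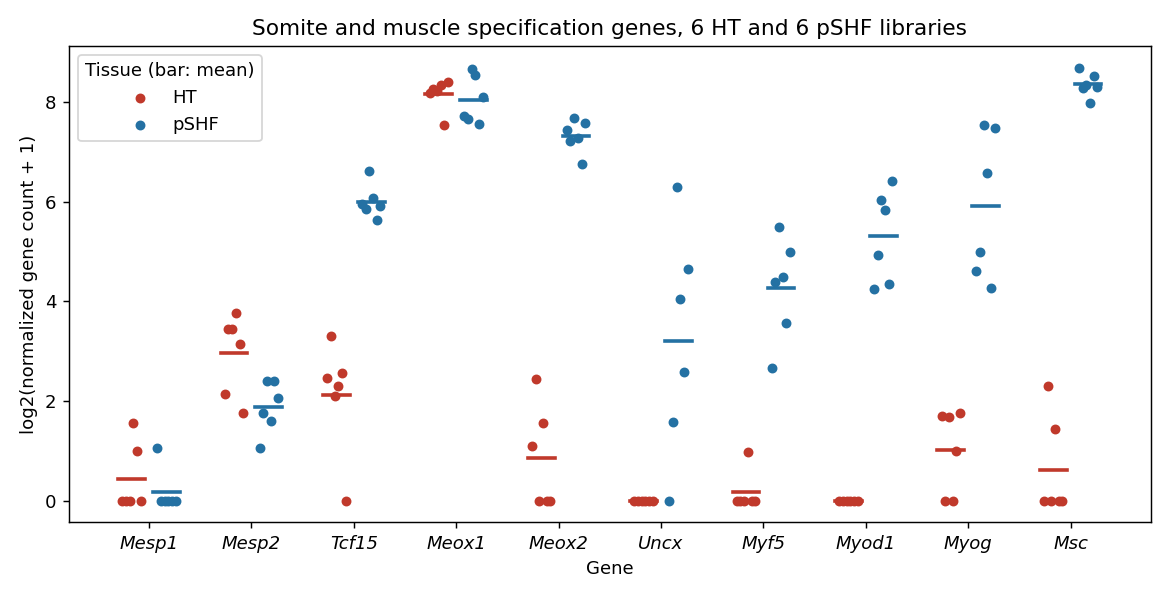
Level of each gene as log2(normalized gene count + 1) in 6 HT libraries (red, left) and 6 pSHF libraries (blue, right), with a bar at the mean. Meox1 overlaps between the tissues, Mesp2 is slightly higher in HT, and Msc, Meox2, Tcf15, Myod1, Myog and Myf5 separate fully with pSHF on top.

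The Mesp genes, bHLH factors switched on at the start of mesoderm and somite formation, were near the detection limit in both tissues. Mesp1 (chromosome 7, 79792241 to 79793788, GRCm38), known for marking the earliest heart precursors, was listed at 0 in 4 of 6 HT libraries and in 5 of 6 pSHF libraries. Its highest value was 1.95 in HT, worth 2 reads, and 1.07 in pSHF, worth 1 read. Mesp1 transcripts were therefore not measurable at this depth in either dissection. Mesp2 (chromosome 7, 79810727 to 79813439), which sets the somite borders, ranged from 2.39 over a median of 8.90 to 12.7 in HT and from 1.07 over 2.77 to 4.32 in pSHF. The 2 lowest HT libraries lay within the pSHF range. Its log2 fold change was 1.07 with a standard error of 0.40 and a limma adjusted p of 0.0237, and in the authors' deposited table the adjusted p was 0.0195. These levels rest on 2 to 13 reads per library in HT and 1 to 5 in pSHF, and the call was lost without pSHF library MR13 (limma adjusted p = 0.0535) and with equal library totals (limma adjusted p = 0.0537). Without HT library MR26, MR27 or MR28R, Mesp2 fell under the minimum mean and was not tested.

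Meox1 and Meox2 are closely related homeobox genes of the somite, and only Meox2 differed between the dissections in the test used. Meox1 (ENSMUSG00000001493.9, chromosome 11, 101877510 to 101894374), which acts in sclerotome and vertebral joint formation, ranged from 185 over a median of 301 to 338 in HT and from 188 over 242 to 402 in pSHF. The ranges overlapped almost fully, and the lowest HT value was that of library MR29. The log2 fold change of Meox1 was 0.12, with a 95% interval of -0.30 to 0.54 and a limma adjusted p of 0.592. It turned to -0.13 with equal library totals and to -0.08 with equal totals without erythroid genes, so no direction can be given. Meox2 (ENSMUSG00000036144.6, chromosome 12, 37108540 to 37179534), needed for limb muscle, ranged from 0 over a median of 0.565 to 4.42 in HT and from 108 over 163 to 203 in pSHF. Every pSHF library lay far above every HT library, with a log2 fold change of -6.48, a standard error of 0.39 and a limma adjusted p of 6.0e-10. The log2 ratio of Meox2 to Meox1, each plus 1, averaged -7.31 ± 0.96 in HT and -0.71 ± 0.36 in pSHF (SD, n = 6 each). This ratio was chosen after the values of both genes were seen and is given as a description, with no test.

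Tcf15 and Uncx mark the epithelial somite and its posterior part. Tcf15 (paraxis; chromosome 2, 152143561 to 152149097), a bHLH factor that keeps the somite epithelial, ranged from 0 over a median of 4.21 to 8.84 in HT and from 48.6 over 59.95 to 96.97 in pSHF. All pSHF libraries stood above all HT libraries (log2 fold change -3.88, standard error 0.42, limma adjusted p = 5.8e-07), and MR15 was the highest of them. Uncx (chromosome 5, 139543494 to 139548179), a homeobox factor of the posterior sclerotome, was listed at 0 in all 6 HT libraries. In pSHF it was listed at 0 in MR13 and stood at 1.99 in MR14, 5.03 in MR17, 15.6 in MR16, 24.2 in MR18 and 77.5 in MR15. Most of its pSHF signal thus came from MR15, and MR13 matched the HT libraries. It passed in limma (adjusted p = 0.00234), but its pSHF mean of 20.7 ± 29.3 (SD, n = 6) dropped to 9.35 ± 10.2 (SD, n = 5) without MR15, and its mean over all libraries then fell under the minimum for testing.

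The myogenic factors were almost absent from HT and present in every pSHF library. Myf5 (ENSMUSG00000000435.1, chromosome 10, 107482908 to 107486134), the first of them to act in the mouse myotome, was listed at 0 in 5 of 6 HT libraries and at 0.976 in the sixth, worth 1 read. In pSHF it stood at 5.33 in MR13, 10.8 in MR17, 19.9 in MR14, 21.4 in MR16, 30.8 in MR18 and 43.8 in MR15 (log2 fold change -4.10, standard error 0.44, limma adjusted p = 5.5e-07). Myod1 (ENSMUSG00000009471.3, chromosome 7, 46376474 to 46379099), which commits cells to muscle, was listed at 0 in all 6 HT libraries. In pSHF its values were 18.1 in MR13, 19.4 in MR17, 29.4 in MR14, 56.2 in MR16, 64.4 in MR15 and 84.4 in MR18, and it passed in limma (adjusted p = 4.3e-09). Myog (ENSMUSG00000026459.5, chromosome 1, 134289989 to 134292548), which drives differentiation of committed myoblasts, ranged from 0 over a median of 1.59 to 2.39 in HT. In pSHF it stood at 18.3 in MR17, 23.4 in MR13, 31.0 in MR14, 94.99 in MR16, 177 in MR18 and 184 in MR15. Its log2 fold change was -4.89, with a standard error of 0.60 and a limma adjusted p of 2.2e-06. For all 3 factors MR15, MR16 and MR18 were the 3 highest pSHF libraries, and MR13, MR14 and MR17 the 3 lowest.

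Msc did not share that order. Msc (musculin, also known as MyoR; ENSMUSG00000025930.6, chromosome 1, 14753346 to 14755992) is a bHLH repressor of myogenic factors and a marker of pharyngeal muscle precursors. It was listed at 0 in 4 of 6 HT libraries, with a highest HT value of 3.94, and ranged from 251 over a median of 320 to 413 in pSHF. The tissues separated fully, with a log2 fold change of -7.73, a standard error of 0.37 and a limma adjusted p of 4.1e-11. Msc was highest in MR13 and lowest in MR16, whereas Myog and Myod1 were lowest in MR13 and MR17. It shares 539 exon bases with Gm9947 on the opposite strand. Because the sources used here do not say whether counting used strand, its reads cannot be told apart from those of Gm9947.

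**Figure D2:**
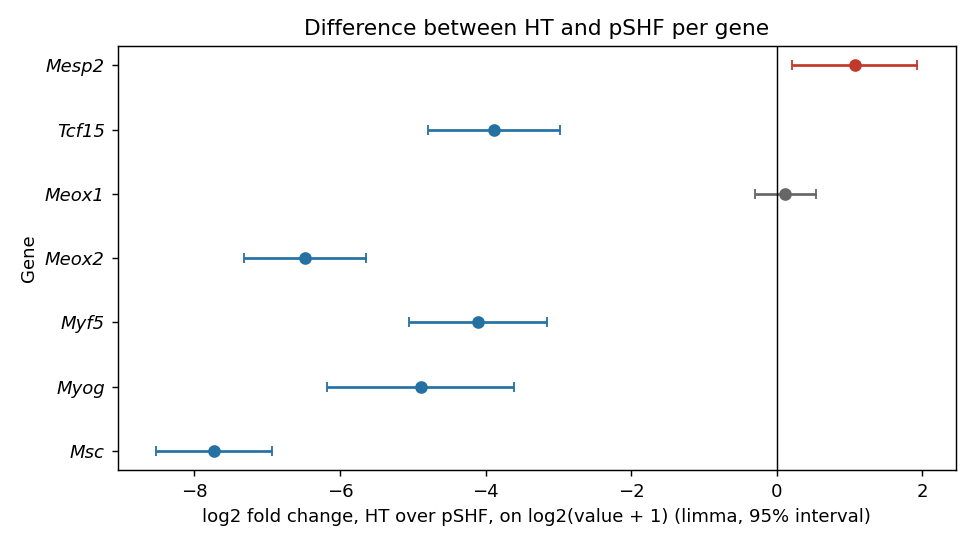
log2 fold change (HT over pSHF, on log2(value + 1)) of the tested genes with its 95% interval from limma, in blue where pSHF was higher, in red where HT was higher and in grey where the test was not passed. Meox1 spans 0, Mesp2 lies to the right, and Tcf15, Meox2, Myf5, Myog and Msc lie between -3.88 and -7.73. Mesp1 (not tested) and Uncx and Myod1 (listed at 0 in all HT libraries) are left out.

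Per kilobase of merged exons, levels of the 10 genes could be set against each other within a tissue. Values of Msc and Uncx above 0 were not whole reads, and what this does to their places was not tested. In pSHF the mean normalized count per kilobase was 129.7 ± 21.5 for Msc, 123 ± 41.4 for Meox1, 69.0 ± 14.4 for Meox2, 66.0 ± 17.2 for Tcf15 and 59.1 ± 51.5 for Myog (SD, n = 6). Below them followed Myod1 at 24.4 ± 14.6, Myf5 at 10.6 ± 6.65, Uncx at 6.60 ± 9.34, Mesp2 at 1.48 ± 0.67 and Mesp1 at 0.139. Ranges of all neighbours in this order overlapped, but Meox1 exceeded Meox2, Myog exceeded Myod1 and Myod1 exceeded Myf5 in 6 of 6 pSHF libraries. Msc exceeded Meox1 in 4 of 6 and Meox2 exceeded Tcf15 in 3 of 6, so those neighbours had no set order. In HT the order was led by Meox1 at 130.2 ± 24.5 per kilobase, with Tcf15 next at 4.34 ± 2.91 and Mesp2 at 3.96 ± 2.08. Meox1 was thus the one gene of the 10 with a level above 10 per kilobase in HT.

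Among the 8 genes with a pSHF mean of at least 5, the pSHF libraries differed most from each other in Uncx and the myogenic factors. The coefficient of variation over the 6 pSHF libraries was 141% for Uncx, 87.2% for Myog, 63.0% for Myf5 and 59.8% for Myod1, against 33.6% for Meox1, 26.0% for Tcf15, 20.8% for Meox2 and 16.6% for Msc. The genes with few reads had 44.98% (Mesp2) and 245% (Mesp1, from 1 read in 1 library). The median over all genes tested was 7.91%. Counting error alone, from the reads rebuilt per library, would give 9.91% for Myog, 13.9% for Myod1 and 19.9% for Myf5. MR15 was the highest pSHF library for 6 of the 9 genes tested, whereas it was the highest for 15.3% of all genes tested. That share was 22.9% for MR13, 14.3% for MR14, 16.2% for MR16, 14.9% for MR17 and 16.4% for MR18. The summed level of Myf5, Myod1 and Myog was 292.6 in MR15, 292.7 in MR18 and 172.6 in MR16, 80.3 in MR14, 48.6 in MR17 and 46.9 in MR13. The ratio of Myog to Myod1, in normalized counts, was 2.87 in MR15, 2.10 in MR18, 1.69 in MR16, 1.29 in MR13, 1.05 in MR14 and 0.94 in MR17.

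**Figure D3:**
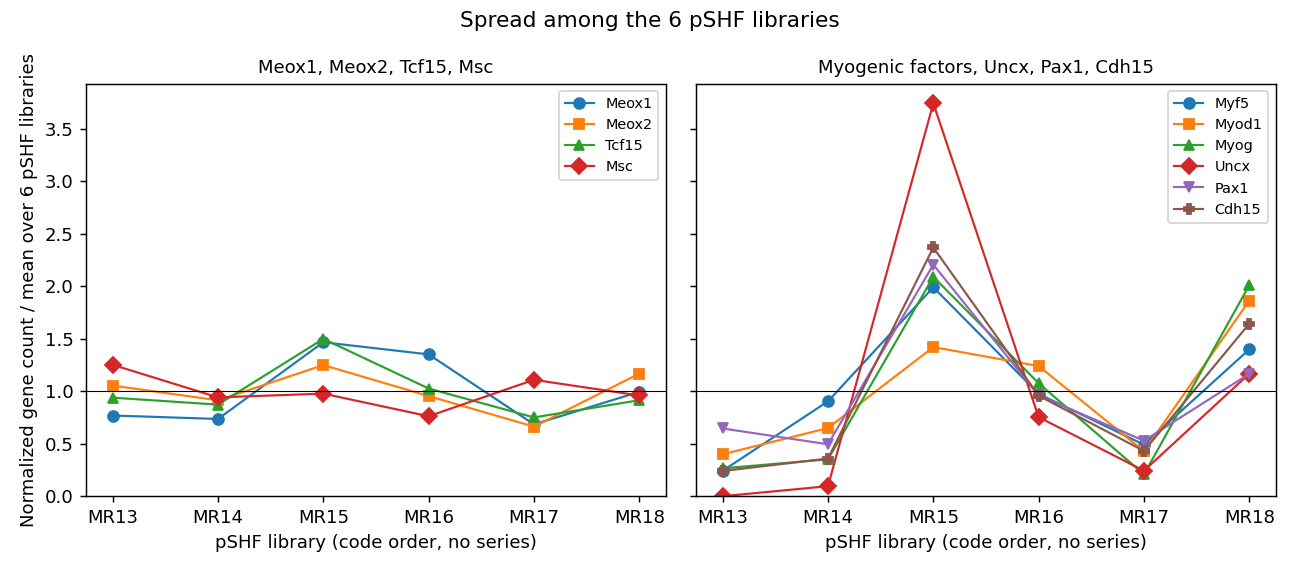
Normalized gene count of each gene divided by its mean over the 6 pSHF libraries, for Meox1, Meox2, Tcf15 and Msc (left) and for Myf5, Myod1, Myog, Uncx, Pax1 and Cdh15 (right). Library codes are names without an order, and lines only join values of 1 gene. MR15 and MR18 stand above the mean for all 6 genes on the right, where MR13, MR14 and MR17 stand below it.

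Several sclerotome genes were high in the same libraries. Pax1, a paired-box factor of the sclerotome that is also made in pharyngeal pouches, stood at 865 in MR15, 458 in MR18 and 377 in MR16, and at 194 to 253 in the other pSHF libraries. Its HT values did not exceed 2.06. Nkx3-2 (Bapx1), which acts after Pax1 in cartilage formation, stood at 91.0 in MR15, 61.5 in MR18 and 34.7 in MR16 and at 7.46 to 15.9 in the others, with a highest HT value of 2.93. Pax9 stood at 199.9 in MR15, 40.4 in MR18 and 19.0 in MR16 and at 10.3 to 12.4 in the others, against 1.95 to 10.4 in HT; without MR15 its pSHF mean was 18.9 in place of 49.1. Of 7 sclerotome and tendon genes, 6 were higher in pSHF and none in HT, against 40.0% and 38.3% of all genes tested. The median log2 fold change was -2.17, against -0.02 for all genes tested, and 3 of the 7 (Pax1, Nkx3-2 and Zic1) entered the test through pSHF alone. Pax1 led (-7.64), and Sox9 (-0.44) differed least among those that passed. The seventh, Zic1, missed the threshold and is named after its values were seen.

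All 11 genes of the dermomyotome and of muscle progenitors were higher in pSHF, with a median log2 fold change of -4.32, and none overlapped between the tissues. Among all genes tested, 40.0% were higher in pSHF and 30.3% separated with pSHF higher. For 6 of the 11, Pax3, Pax7, Lbx1 and Sim1 among them, the HT mean was under 5 and the gene entered the test through pSHF, so this count and median are descriptions. Pax3, which acts before the myogenic factors in the dermomyotome, ranged from 0 to 1.37 in HT and from 14.7 over a median of 31.1 to 108 in pSHF. Its sister gene Pax7 ranged from 0 to 1.64 in HT and from 11.1 over 17.4 to 52.8 in pSHF. In every HT library Lbx1, a factor of migrating muscle precursors, was listed at 0, and it ranged from 21.3 to 75.5 in pSHF. Sim1 had a log2 fold change of -6.07, Six4 of -2.07 and Met, the receptor for the growth factor that guides those precursors, of -0.95. Highest among pSHF libraries was MR15 for 4 and MR18 for 5 of the 11 genes, against 15.3% and 16.4% of all genes tested.

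Genes of the presomitic mesoderm and of segmentation went both ways. Of 13, 10 were tested, with 7 higher in pSHF and 3 higher in HT, and the median log2 fold change was -0.66. For all genes tested these shares were 40.0% and 38.3%. Msgn1, a defining gene of the presomitic mesoderm, was listed at 0 in all 12 libraries, and Ripply1 and Ripply2, which act with Mesp2 at the somite border, were also too low to test (all 3 named after their values were seen). Tbx6, which activates Mesp2 in the presomitic mesoderm, ranged from 12.6 to 19.8 in HT and from 13.1 to 35.3 in pSHF, with a limma adjusted p of 0.0496. That call was lost in 10 of 12 runs with 1 library left out (limma adjusted p 0.0527 to 0.121), all but those without MR28R or MR15. It was also lost with TMM scaling (0.0667), with a pseudocount of 0.5 (0.0525) and with no filter (0.0636). Pcdh8 (log2 fold change -3.42) and the Notch ligand gene Dll3 (-2.86) were higher in pSHF. The HT mean of Dll3 was 2.69, under the minimum for testing, so Dll3 entered the test through pSHF. The count of 7 is therefore a description. Dll1, also a Notch ligand gene (mean 341 in HT and 137 in pSHF), and the oscillating repressor gene Hes7 (log2 fold change 0.84) were higher in HT, and Hes7 lost its call with equal library totals (limma adjusted p = 0.0589). Tbx18, chosen after its values were seen, was the third gene higher in HT (2109 ± 181 in HT and 1330 ± 132 in pSHF, SD, n = 6 each) and is also known from the epicardium and the sinus horns.

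Genes of the pharyngeal muscle program were mostly higher in pSHF. Of 7, 6 passed with pSHF on top, against 40.0% of all genes tested, and the median log2 fold change was -2.76. Tbx1, which is required for pharyngeal muscle and the second heart field, ranged from 3.30 to 11.0 in HT and from 313 over a median of 467 to 629 in pSHF (log2 fold change -6.27). Ebf2 followed at -5.56. Tcf21 (capsulin), a bHLH factor that acts with Msc in facial muscle, missed the threshold (681 ± 59.8 in HT and 724 ± 49.5 in pSHF, SD, n = 6 each; limma adjusted p = 0.196). It passed with pSHF on top when libraries were scaled to equal totals (log2 fold change -0.34, limma adjusted p = 0.000188) and when HT library MR30 was left out (-0.13, limma adjusted p = 0.0415). Msc and Tcf21 thus gave different results in the same libraries, and Tcf21 is also known as an epicardial gene.

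Partners and inhibitors of the myogenic factors were all higher in pSHF. All 9 passed, with a median log2 fold change of -1.14, whereas 78.3% of all genes tested passed, 40.0% with pSHF higher. The E-protein gene Tcf12, whose product pairs with myogenic bHLH factors, ranged from 3140 to 3499 in HT and from 9906 to 10901 in pSHF. It had a log2 fold change of -1.65. Among the inhibitors, Twist1 had the largest of the list, at -1.91, and Mdfi, which holds myogenic factors in the cytoplasm, had -1.39, Id1 -0.92, Id4 -0.58 and Id2 -0.20. Id2 overlapped between the tissues.

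**Figure D4:**
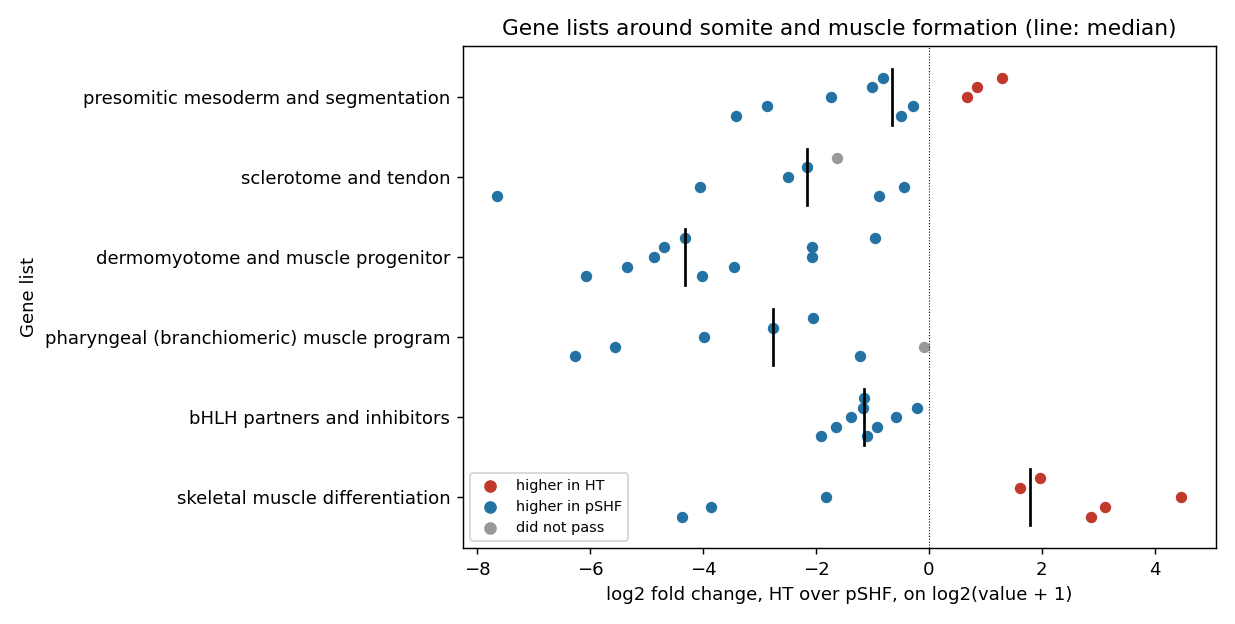
log2 fold change (HT over pSHF, on log2(value + 1)) of each tested gene in 6 gene lists, in red where HT was higher, in blue where pSHF was higher and in grey where the test was not passed, with a line at the list's median over all its tested genes. Lbx1, listed at 0 in all HT libraries, has no point. All points of the dermomyotome and bHLH lists lie left of 0, and the skeletal muscle differentiation list splits into 5 genes to the right and 3 to the left.

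Genes of skeletal muscle differentiation split by direction. Of 14, 8 were tested, 5 of them higher in HT and 3 higher in pSHF, and the median log2 fold change was 1.80. For all genes tested these shares were 38.3% and 40.0%. Cdh15 (HT mean 1.73) entered the test through pSHF and Ckm (pSHF mean 1.91) through HT, so these counts are descriptions. The sign of the median depends on the filter, because with no filter every gene too low to test had a negative log2 fold change. These were Chrna1 (-1.48), Musk (-1.40), Mymk (-1.16), Chrnd (-0.997), Myf6 (-0.63) and Mymx (-0.15), all but Myf6 named after their values were seen. The 5 genes higher in HT were Ckm (muscle creatine kinase; 55.6 ± 7.09 in HT and 1.91 ± 1.53 in pSHF), Tnni2 (fast troponin I; 323 ± 51.5 in HT and 36.6 ± 8.44 in pSHF) and, named after their values were seen, Tnnt3, Rapsn and Chrng (SD, n = 6 each). Tnnt3 encodes fast troponin T, Rapsn an anchor of acetylcholine receptors and Chrng a subunit of the fetal receptor. Myf5, Myod1 and Myog summed to at most 2.39 in HT. Cdh15 (M-cadherin of myoblasts), Myh3 (embryonic myosin heavy chain) and Myh8 (perinatal myosin heavy chain, named after its values were seen) were higher in pSHF. Cdh15 stood at 136 in MR15, 94.7 in MR18 and 55.2 in MR16 and at 13.9 to 24.8 in the other pSHF libraries, and its highest HT value was 4.52. Myh3 stood at 866 in MR15, 265 in MR18 and 69.5 in MR16 and at 17.3 to 29.8 in the others, with a pSHF mean of 211 that was 80.5 without MR15. Myf6, the remaining factor of the Myf5 family, was too low to test, with at most 1.10 in HT and 6.01 in pSHF.

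Summed markers of other cell types varied among the pSHF libraries too. The 7 neural genes summed to 411 to 502 in HT and, in pSHF, to 1825 in MR13, 1575 in MR14, 2523 in MR15, 1862 in MR16, 1767 in MR17 and 2025 in MR18. Of the 4 neural genes tested, 3 were higher in pSHF and 1 did not pass, whereas 40.0% of all genes tested were higher in pSHF. All 4 were highest in MR15, against 15.3% of all genes tested. Tubb3, a neuronal tubulin, stood at 799 there and at 402 to 607 in the other pSHF libraries. Olig2, a defining gene of the ventral neural tube that is named after its values were seen, was listed at 0 in all 12 libraries. Limb and lateral plate genes (4 of 5 higher in pSHF and 1 in HT) summed to 3296 to 3686 in HT and, in pSHF, to 9172 in MR13, 8850.3 in MR14, 9964 in MR15, 11653 in MR16, 8747 in MR17 and 10788 in MR18.

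Of 7 foregut endoderm genes, 7 were higher in pSHF, against 40.0% of all genes tested. For 4 of the 7 the HT mean was under the minimum of 5 and the gene entered the test through pSHF. The 7 genes summed to 18.5 to 69.6 in HT and, in pSHF, to 3848 in MR13, 3127 in MR14, 2967 in MR15, 3039 in MR16, 3439 in MR17 and 2984 in MR18. The 5 second heart field genes summed, in pSHF, to 9964 in MR13, 9064 in MR14, 7906 in MR15, 7891 in MR16, 8885 in MR17 and 7711 in MR18. Both sums were highest in MR13, the library with the lowest sum of myogenic factors. Heart muscle genes summed, in pSHF, to 12047 in MR13, 26053 in MR14, 22538 in MR15, 17166 in MR16, 18575 in MR17 and 29584 in MR18. Neural crest genes (5 of 6 higher in pSHF and 1 in HT) summed to 2457 to 3144 in HT and 2483 to 2666 in pSHF. For 2 of the 6 the HT mean was under the minimum of 5 and the gene entered the test through pSHF. Most of the HT sum was Ednrb, the 1 gene higher in HT (mean 2652, against 1089 in pSHF). Tfap2b, the next most abundant, had a mean of 3.81 in HT and 527 in pSHF. These near-equal sums therefore do not describe the other 5 genes. The part of any of these in the values of the somite and muscle genes was not tested.

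The deposited raw counts, in a table of their own, held little of the 10 genes. Summed over 6 libraries per tissue, Msc had 0 counts in HT and 12 in pSHF, and Tcf15 had 0 in HT and 7 in pSHF. Myod1 had 0 counts in HT and 6 in pSHF, Myog 0 in HT and 4 in pSHF, Meox2 1 in HT and 4 in pSHF, Uncx 0 in HT and 2 in pSHF, and Meox1 13 in HT and 10 in pSHF. No count fell on Mesp1, Mesp2 or Myf5. None of the 10 had enough counts to be tested with edgeR's filter, where 48.3% of 3370 genes passed, 23.1% higher in pSHF and 25.2% higher in HT. With no filter, edgeR called Msc (adjusted p = 0.00567) and Tcf15 (adjusted p = 0.0394) higher in pSHF. In that run it called 2889 of 16244 genes in either direction.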

How the data were processed

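The authors' tools included STAR and DESeq2 with the build mm10, per the submitters' processing notes, with no version. The labels call the reads stranded, and whether counting used strand is not given. The deposited signal per library is normalized gene counts, scaled by the authors. One value step per library gave rebuilt reads (46.5 to 49.4% of values below 20.5 reads were whole within 0.01), which are approximate for other genes. The authors' log2 fold change, test score, p-value and adjusted p-value stand in the same deposited table. A second deposited table holds raw counts (233865 to 340434 per library). Columns name tissue and library code only.

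Normalized counts were tested with limma 3.58.1 (trend) on log2(value + 1), where the mean over libraries reached 5, with Benjamini-Hochberg adjustment over all genes and a threshold of 0.05. Raw counts were tested with edgeR 4.0.16 (quasi-likelihood, TMM, filterByExpr). Both were tested on simulated data. DESeq2 1.42.0, other pseudocounts, filters and scalings and each library left out were alternatives. Exon lengths and coordinates are GENCODE M21 (GRCm38), matched by gene identifier. Named are the 10 genes, the 2 largest and 2 smallest fold changes of each list, and a fixed set of factors (Pax1, Pax9, Nkx3-2, Pax3, Pax7, Tbx6, Tcf21, Myf6, Tbx1, Tcf12, Id1, Mdfi) and markers; others are marked, and a few genes under this rule are left unreported. The genes and lists were chosen with earlier results of these data known. R 4.3.3 and pandas 2.3.3 were used.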

Additional observations from a re-analysis of the deposited data

Results flagged for a closer look

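In 5 cases 1 library of a tissue stood apart from the other 5, with a gap to its neighbour, as a share of the tissue's whole range, above Dixon's 95% critical value. For Meox1 the lowest HT library, MR29 at 185, had a share of 0.68, with the next at 289. For Tcf15 the highest pSHF library, MR15 at 97.0, had a share of 0.632, with the next at 66.4. For Uncx the highest pSHF library, again MR15 at 77.5, had a share of 0.688, with the next at 24.2. The remaining cases rest on 1 read each: Myf5 in HT library MR28R and Mesp1 in pSHF library MR13, each with a share of 1 because the other 5 libraries were at 0. For normally distributed values this limit is passed by chance in about 1 of 20 groups. The counts here were not transformed and many were 0, so that rate need not hold for them.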

How the results depend on the processing

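On the normalized counts, the 7 genes higher in pSHF passed in limma under every alternative in which they were tested, which leaves out Uncx without MR15 and Uncx and Myf5 with a minimum mean of 20. Mesp2 was the unstable call. The number of genes higher in HT was 0 in place of 1 with a minimum mean of 20, with equal library totals and at an adjusted p of 0.01, and 0 to 1 with each library left out. Mesp2 itself had a log2 fold change of 0.88 with equal library totals (adjusted p = 0.0537) and 0.91 to 1.31 with each library left out, where it was tested. Meox1 changed sign to -0.13 with equal library totals and -0.081 with equal totals without erythroid genes. Equal totals shifted the median of all genes by -0.25. Of the skeletal muscle differentiation genes, 5 in place of 3 were higher in pSHF without a filter. In the raw counts no gene of the 10 had enough counts for edgeR's filter. Without a filter edgeR called 2 of these 7 higher in pSHF (Meox2, Uncx, Myod1 and Myog had adjusted p of 0.462, 0.309, 0.0589 and 0.135, and Myf5 had no count), and DESeq2 called 1. Of the 16244 genes entered in each run, edgeR called 2889 and DESeq2 2168 in either direction. The cause of these changes was not tested, except that a higher minimum or a lost library drops Mesp2 and Uncx by construction. No paired analysis was possible because the columns carry no replicate number. Mesp1, Mesp2 and the HT values of the other genes, Meox1 aside, are limited by depth.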

Other observations

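A pair of genes outside muscle stood out in 1 pSHF library. Zic1, a zinc finger gene of the dorsal neural tube and the dorsal somite, stood at 0 to 15.1 in HT. In pSHF it stood at 270.0 in MR15, at 12.1 in MR18 and at 0.765 to 3.93 in the other 4. Neurog1, a proneural gene, was at 0 in every HT library and, in pSHF, at 10.3 in MR15, 2.16 in MR17, 0.789 in MR18 and 0 in the other 3. Both genes were picked after their values were seen.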
